A study of Rattus norvegicus with 9 samples.

Results

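The genes described here are 71 of the 22637 rat genes counted in 9 kidney libraries. Their transcripts were present in every control and disease-model library and were at least 2 times lower in each of the 3 libraries of kidney treated with mesenchymal stem cells (MSCs). The members were chosen by their measured levels, in CPM (a gene's count per 1000000 counts of its library). A gene was taken when its mean over the 3 control and 3 disease-model libraries was 5 CPM or more and the lowest of these 6 values was at least 2 times the highest of the 3 MSC values. The 100 genes with the highest mean in controls were left out, which removed 1 gene that met the other conditions. Of 11378 genes that could have qualified by level, 0.624% were members. Under the mirrored rule, with the lowest MSC value at least 2 times the highest of the other 6, 42 of the same 11378 genes (0.369%) were raised.

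All libraries were made from polyadenylated RNA of kidney tissue of SD rats (Sprague-Dawley, an outbred stock). There were 3 libraries in each of 3 groups: control, a rat model of chronic kidney disease (CKD), and treatment with MSCs. The series title speaks of MSCs infused into the parenchyma of the kidney of CKD rats with ultrasound guidance. The sources used here do not give the means of inducing CKD, the origin and dose of the MSCs, the sex and age of the rats, or the sampling time. Nothing in the labels ties replicates to separate animals, and p-values then reflect the spread among these libraries alone, which may be technical.

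Kidney tissue consists mainly of nephrons, whose tubular epithelium carries the transporters and enzymes that recover filtered solutes. Chronic kidney disease is known for loss of tubular epithelium, fibroblast activation and leukocyte infiltration, and MSCs are multipotent stromal cells tried as a treatment for it. In bulk tissue, a lower transcript level can come from fewer cells of the type that makes it or from less RNA per cell, and these cannot be told apart here. The deposited table gives Ensembl identifiers without gene names, and 0 of the 71 identifiers could be paired with an entry of the reference gene table, so the members are described by their levels and not by function, no sequence is shown, and the labelled tissue could not be checked against marker genes. Only 2 members are named by identifier, the most abundant one and the one with the largest gap between groups, and the others are identified by their rank of level.

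Library totals were 53059872 to 54234681 counts (control), 56442995 to 58546847 (CKD) and 47633344 to 48767298 (MSC), with no overlap between groups and the lowest totals in MSC libraries. Whether depth has a part in the levels was not tested. At these depths, 3 counts, the limit that a count of 0 allows, corresponded to 0.0615 to 0.063 CPM in the MSC libraries, for counting error only. The scaling factors of the trimmed mean of M-values (TMM, which corrects for a few abundant genes taking reads from all others) lay between 0.899 in control replicate 3 and 1.112 in CKD replicate 2. On TMM-scaled CPM the rule gave 68 genes, 61 of them among the 71. By CPM, CKD replicate 2 lay apart from the other CKD libraries, with 50.5% of the 11378 genes above all 3 controls against 19.3% and 25.4% in CKD replicates 1 and 3. On TMM-scaled CPM these shares were 28.9%, 19.6% and 29.4%, so on that scale it did not stand apart by this measure. By the share of genes below all 3 controls it still did on that scale, with 37.4% against 21.8% and 25.7% in CKD replicates 1 and 3. Some results that rest on it are also given without it, and the others are given only with it.

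As a sum, the 71 genes held 0.675%, 0.697% and 0.527% of all counts in control replicates 1 to 3, 0.72%, 0.577% and 0.707% in CKD replicates 1 to 3, and 0.125%, 0.144% and 0.174% in MSC replicates 1 to 3. All MSC sums were therefore below the other 6, while control and CKD sums overlapped. The summed level averaged 6329 ± 927 CPM over controls, 6678 ± 793 over CKD libraries and 1475 ± 244 over MSC libraries (SD, n = 3 per group). This is 4.29 times lower in MSC than in control kidneys and 4.53 times lower than in CKD kidneys. The rule set the direction of this gap. The 5 most abundant members made up 45.5% of the summed control and CKD level.

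**Figure D1:**
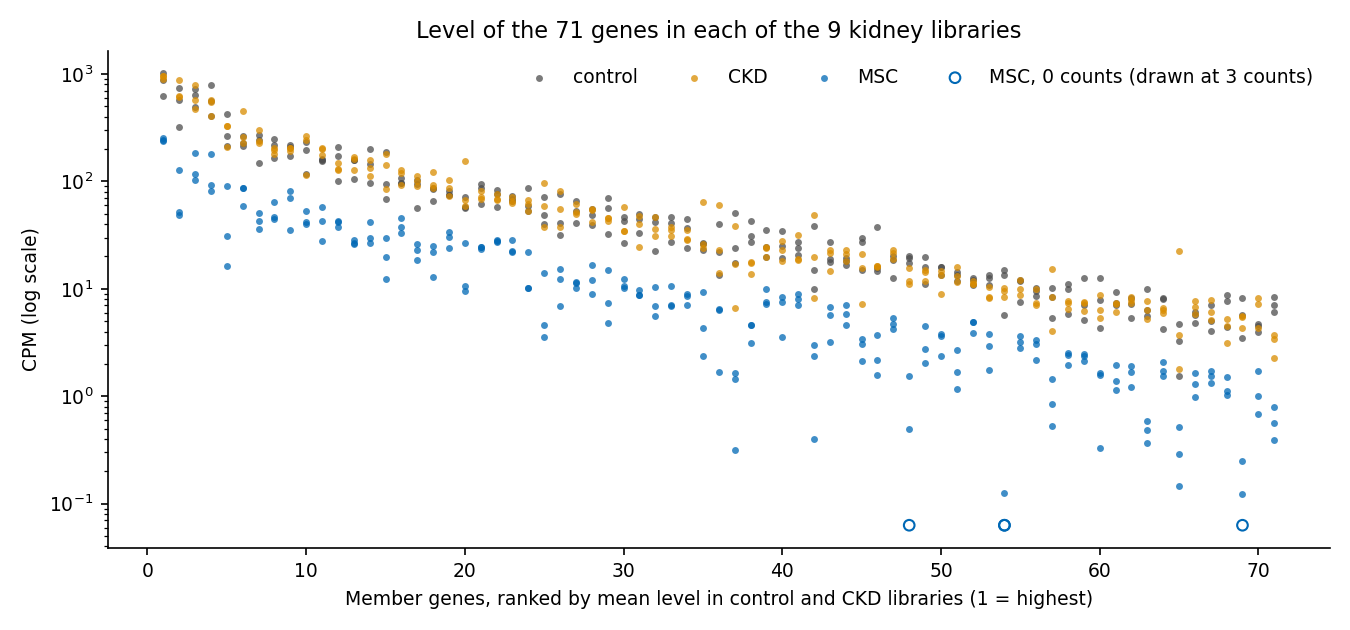
Level in CPM (log axis) of each of the 71 genes in each of the 9 libraries, with genes ordered along the horizontal axis by mean level in control (grey) and CKD (orange) libraries and MSC libraries in blue; open circles stand for 0 counts, drawn at the level of 3 counts. The blue points lie under the grey and orange points for every gene, as the rule requires, with 3 genes at 0 counts in 1 or more MSC libraries.

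The mean level of a member over control and CKD libraries ran from 5.16 to 885 CPM with a median of 28.7 CPM, near the median of 31.8 CPM over the 11378 genes. Members were thus found at low, middle and high levels. With a mean of 100 CPM or more there were 16 members, or 0.867% of the 1845 such genes. There were 27 members (0.478% of 5646) between 20 and 100 CPM and 28 (0.72% of 3887) between 5 and 20 CPM. These level bands were set after the values had been seen.

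Most members lost transcript in part and kept a measurable level in MSC kidneys. All 71 were detected in every control and CKD library, with at least 81 counts, and 68 had at least 1 count in every MSC library. The mean control and CKD level was 2.53 to 248 times the MSC mean, with a median of 4.52 times. In 25 members this factor was under 4, in 36 it was 4 to under 8, and in 10 it was 8 or more. The median factor was 4.31 in the 16 most abundant members, 4.43 in the middle band and 4.71 in the lowest band. Factors above 8.24 occurred only in members under 100 CPM.

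The most abundant member, ENSRNOG00000009897, measured 876, 1012 and 618 CPM in control replicates 1 to 3, 954, 895 and 956 CPM in CKD replicates 1 to 3, and 235, 241 and 251 CPM in MSC replicates 1 to 3. The MSC values of this gene were nearly equal, and control replicate 3 was the lowest of the other libraries. Group means were 835 ± 200 CPM (control), 935 ± 34.7 CPM (CKD) and 242 ± 8.07 CPM (MSC; SD, n = 3 per group). The log2 fold of MSC over CKD came to -1.97 ± 0.18 (SE). Between CKD and control the log2 fold was 0.11 ± 0.17 (SE, edgeR adjusted p = 0.901) and -0.01 without control replicate 3.

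Other abundant members were less even between MSC libraries. The second most abundant member measured 743, 572 and 322 CPM in controls, 879, 607 and 621 CPM in CKD kidneys and 51.6, 49 and 127 CPM in MSC kidneys, so that MSC replicate 3 was highest of its group. Its mean was 703 ± 153 CPM in CKD and 75.7 ± 44 CPM in MSC libraries (SD, n = 3 per group), and its control and CKD mean was 8.24 times its MSC mean, the largest factor among the 16 members at 100 CPM or more. The third most abundant measured 727, 630 and 488 CPM in controls, 795, 475 and 569 CPM in CKD kidneys and 118, 184 and 104 CPM in MSC kidneys. Here MSC replicate 2 and not replicate 3 was the highest. The fifth most abundant measured 424, 213 and 265 CPM in controls, 326, 207 and 325 CPM in CKD kidneys and 16.3, 31.2 and 91.2 CPM in MSC kidneys. Its highest MSC value was 5.6 times its lowest, and MSC replicate 3 was the high one.

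At the other end, 4 members had a lowest control or CKD value of 5 or more times the highest MSC value, 6 had 3 to under 5 times and 61 had under 3 times. These 4 all had mean control and CKD levels under 20 CPM. ENSRNOG00000025757 had the largest gap, at 45.3 times. It measured 15.1, 5.71 and 13.4 CPM in controls, 10.1, 9.55 and 8.45 CPM in CKD kidneys, and 6, 0 and 0 counts in MSC replicates 1 to 3, which is 0.126 CPM in MSC replicate 1. Its transcript was thus nearly absent from the treated kidneys, and a fold against so few counts is imprecise. Fitted for MSC over CKD, the log2 fold came to -7.77 ± 0.80 (SE), and to -11.96 without MSC replicate 1, when no MSC count was left. Its CKD and control values overlapped, with a log2 fold of -0.37 ± 0.51 (SE, edgeR adjusted p = 0.895) between these groups.

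The member with the second largest gap (14 times) measured 8.27, 3.52 and 5.73 CPM in controls, 5.49, 5.58 and 4.34 CPM in CKD kidneys and 12, 0 and 6 counts in MSC kidneys. The third, at 8.91 times, was low in all MSC libraries without reaching 0. It measured 6.36, 10 and 5.57 CPM in controls, 7.65, 6.41 and 5.19 CPM in CKD kidneys and 0.483, 0.583 and 0.369 CPM in MSC kidneys, which were 23, 28 and 18 counts. The fourth, at 7.12 times, was uneven among MSC libraries, with 74, 24 and 0 counts, against 20.4, 19.2 and 17.2 CPM in controls and 11.1, 11.7 and 15.7 CPM in CKD kidneys. In this last gene all 3 CKD values were below all 3 controls as well.

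Near the limit of the rule, the member with the smallest ratio (2.002) had a lowest control or CKD value of 19.7 CPM and a highest MSC value of 9.85 CPM. The next members inside stood at 2.02 and 2.044. The first gene outside, at 1.989, had 50 against 25.1 CPM, followed by genes at 1.966 and 1.965. The limit therefore cuts through a continuous range: at 1.5 times there were 203 genes and at 3 times 10. Without any fold limit, MSC values lay below all other values in 2127 of the 11378 genes (18.7%) and above them in 1407 (12.4%).

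**Figure D2:**
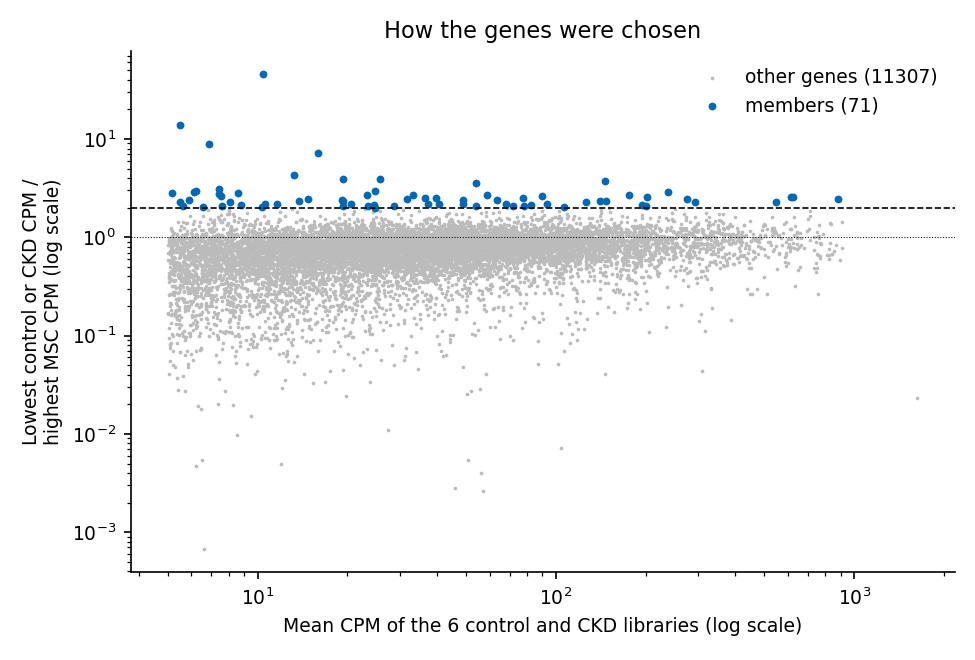
Ratio of the lowest control or CKD CPM to the highest MSC CPM against mean control and CKD CPM (both axes logarithmic) for the 11378 genes that could qualify by level; members in blue, other genes in grey, with lines at ratios of 2 and 1. The 71 members lie on or above the upper line at all levels, and 4 of them stand at ratios of 5 or more.

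The rule compared MSC kidneys with both other groups, so these contrasts describe the choice and are no test of it. In the fit over all genes (edgeR quasi-likelihood test, adjusted p under 0.05), all 71 members were called lower in MSC than in CKD kidneys, where 11.4% of the 17584 tested genes were called lower, and all 71 were called lower in MSC than in control kidneys, where 15.4% were. Their log2 folds between MSC and CKD ran from -7.77 to -1.33 with a median of -2.18. Over all tested genes the median was 0.00, with quartiles at -0.36 and 0.50. Between MSC and control the members' log2 folds ran from -8.13 to -1.45 with a median of -2.18. These comparisons share the MSC libraries.

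To read MSC libraries that had no part in the choice, the rule was applied with 1 MSC library left out, and the genes so chosen were then read in that library. Those at least 2 times below in the library left out are the 71 members again by construction, so for that limit only the number of genes chosen is informative. Without MSC replicate 1 the rule chose 76 genes. All 76 lay below every control and CKD value in MSC replicate 1, against 30.7% of the 11378 genes, and the 71 members were 93.4% of them, where 3.65% of all 11378 genes were at least 2 times below. Without MSC replicate 2 it chose 87 genes, of which 84 (96.6%) lay below every control and CKD value in that library, against 34.5% of all, and the 71 members were 81.6% of them, against 2.36%. The third library set the size of the group. Without MSC replicate 3 it chose 191 genes. In replicate 3, 171 of these (89.5%, against 30.7%) lay below every control and CKD value, but the 71 members were only 37.2% of them, against 0.967%.

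In MSC replicate 3 the lowest control or CKD value was a median of 1.65 times the level in that library over the 191 genes, compared with 3.56 times in MSC replicate 1 over its 76 genes and 2.71 times in MSC replicate 2 over its 87 genes. The control and CKD libraries served both for the choice and for the reading, which favours genes with a high lowest value, so these shares are a description.

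**Figure D3:**
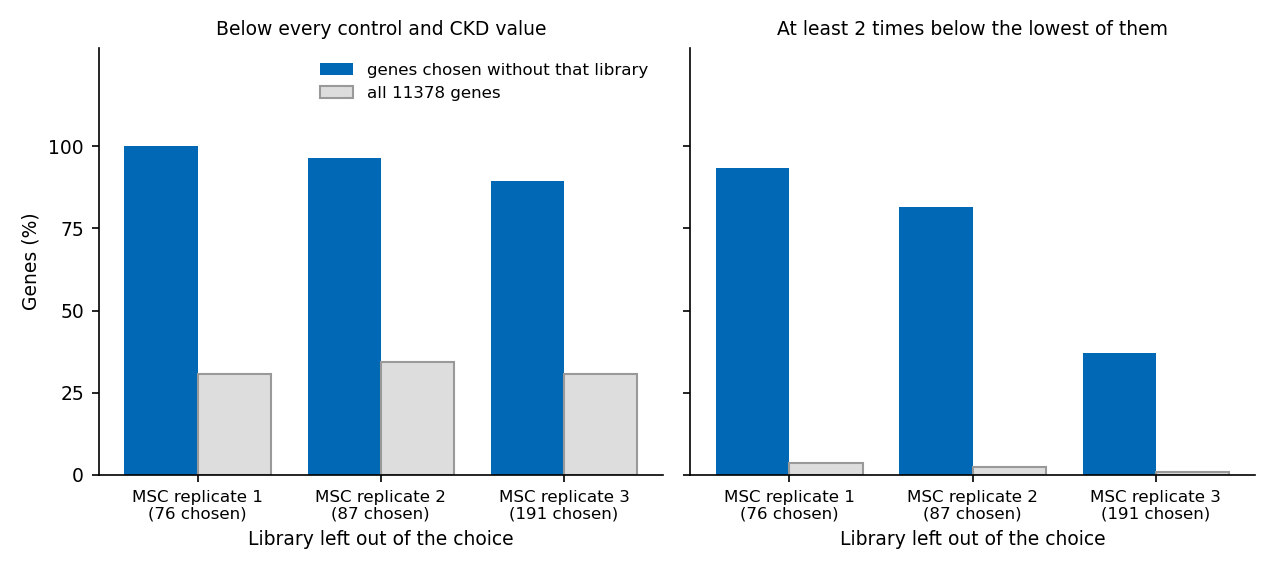
Percent of genes in an MSC library that lay below every control and CKD value (left) or at least 2 times below the lowest of them (right), for genes chosen without that library (blue) and for all 11378 genes (grey). The blue bars on the left stand at 100%, 96.6% and 89.5%, and the bar for MSC replicate 3 on the right, at 37.2%, is the lowest of the blue bars; each blue bar on the right is the 71 members as a share of the genes chosen.

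Among the MSC libraries themselves, replicate 1 had the lowest level of 37 of the 71 members (52.1%), although it was lowest in 26% of the 11378 genes. MSC replicate 3 had the highest level of 37 members (52.1%), against 31.5% of all genes. On TMM-scaled values replicate 1 was lowest in 44 members (62%), against 38.8% of all genes. The highest MSC value of a member was 1.04 to 25.3 times the lowest, with a median of 1.61, where 0 counts were set to 3 counts. In 42 members it was under 2 times, and in 6 it was over 4 times. The most even was the member ranked 22 by level, with 28.2, 28 and 27 CPM in MSC kidneys against 58.3 to 83.3 CPM in controls and 66.9 to 76.9 CPM in CKD kidneys.

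CKD and control kidneys were compared to see whether the members already differed in the untreated disease model, a contrast the rule did not use, although it read the same 6 libraries for its minimum mean and lowest value. In 4 members the mean of 1 of the 2 groups was under 5 CPM, so these passed the minimum through the higher group and their difference is tied to the choice. By edgeR's quasi-likelihood test 0 of the 71 members differed at an adjusted p under 0.05 (smallest adjusted p = 0.733), and 0 of the 17584 tested genes did (0% lower and 0% higher). Before adjustment, 3 members had p under 0.05 with a lower level in CKD kidneys, against 2.68% of tested genes, and 0 with a higher level, against 3.87%. limma-voom also called 0 members, a count given without its share over all genes. DESeq2 called 2 members lower, and 1 of these met the minimum of the rule through its controls. It called 0.133% of the 19528 genes it tested lower, a set without the minimum level of the rule, so the count is a description.

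The log2 folds of the members between CKD and control had a median of -0.10 and quartiles of -0.26 and 0.15, beside a median of 0.00 and quartiles of -0.16 and 0.20 over all tested genes. The fold was below 0 in 43 of 71 members (60.6%) and in 51.9% of the 11378 genes. This count depended on single libraries: it was 38 without control replicate 1 or CKD replicate 2, and 53 without CKD replicate 3. With library size only it was 39. The shares of all genes in these settings are not given here. In 60 members the fold was within 0.5 of 0 on the log2 scale, a count given without its share over all genes. The quartiles above lay closer together over all tested genes than over the members. In 43 members (60.6%) the 95% interval excluded a 2-fold change in either direction, against 88.3% of the 11378 genes, and its median half-width was 0.61 on the log2 scale for members and 0.35 for all. The members' intervals were thus wider at the median, and for the other 28 members a change of 2-fold between CKD and control lay within the interval. Spread was estimated per gene over all 9 libraries, so these widths also carry the spread among MSC libraries, whose values the rule used. The widths are therefore no measure of spread among control and CKD libraries alone, and the part of the MSC libraries was not tested.

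**Figure D4:**
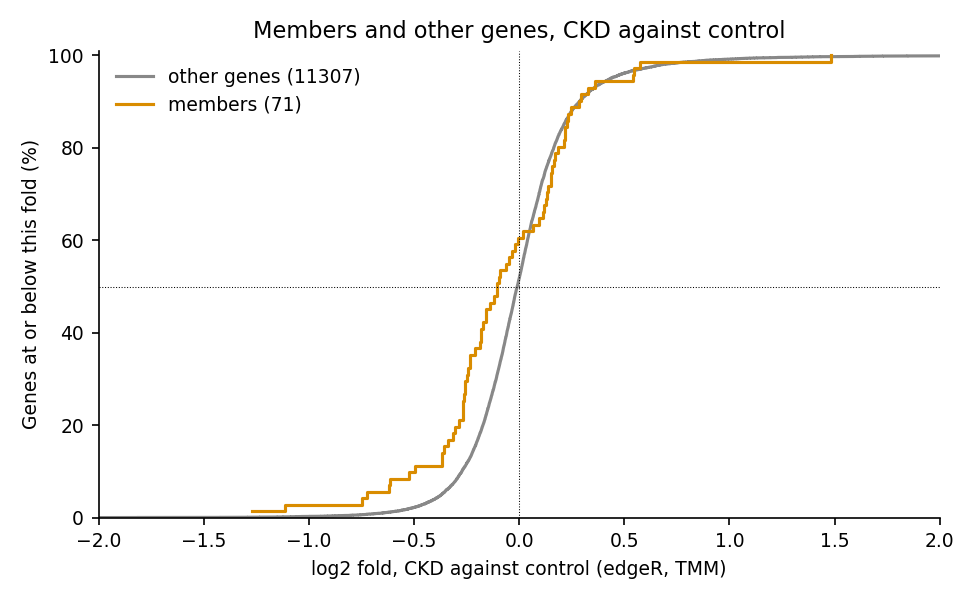
Cumulative percent of genes against their log2 fold between CKD and control kidneys (edgeR, TMM scaling), for the 71 members (orange) and the other genes of this range of levels (grey); folds beyond 2 either way are not drawn. The orange curve lies to the left of the grey curve below a fold of 0 and reaches 60.6% there, and 1 member lies at 1.48.

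All CKD values were below all controls in 4 members (5.63%) and above them in 1 (1.41%). Over the 11378 genes these shares were 4.16% and 6.84%. The count below all controls depended on single libraries: it was 9, 7 and 12 members (12.7%, 9.86% and 16.9%) without control replicates 1, 2 and 3, against 6.72%, 7.12% and 10% of the 11378 genes, and 8 (11.3%, against 6.63%) without CKD replicate 3. Without CKD replicate 1 or 2 it was 4 (5.63%), against 8.34% and 9.18%, and on TMM-scaled CPM it was 4, against 6.64%. The members' share thus lay above that of all genes in some settings and below it in others. The clearest of the lower members was ranked 38 by level. It measured 30.7, 27 and 42.4 CPM in controls, 17.3, 13.7 and 17.6 CPM in CKD kidneys and 4.6, 4.6 and 3.1 CPM in MSC kidneys. All CKD values of this member lay below all controls, while the rule itself placed the MSC values below both groups. Its log2 fold between CKD and control was -1.11 ± 0.25 (SE, edgeR adjusted p = 0.733) and was past the threshold with DESeq2 (adjusted p = 0.0207).

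The least abundant member also had all CKD values below all controls, at a lower level. It measured 6.04, 7.12 and 8.39 CPM in controls, 2.26, 3.4 and 3.74 CPM in CKD kidneys and 0.567, 0.395 and 0.8 CPM in MSC kidneys. Its log2 fold between CKD and control was -1.27 ± 0.31 (SE, edgeR adjusted p = 0.756), with an adjusted p of 0.0289 by DESeq2. Its CKD mean was 3.14 CPM, so it met the minimum of the rule through its controls and this difference is a description. The third member with an unadjusted p under 0.05 (0.0491 by edgeR's test, adjusted p = 0.756), ranked 68, measured 8.67, 7.69 and 4.41 CPM in controls and 4.5, 3.15 and 5.19 CPM in CKD kidneys, and these values overlapped. It too met the minimum through its controls, with a CKD mean of 4.28 CPM.

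In the other direction, the largest CKD to control fold of a member rested on 1 library, through which the member also met the minimum of the rule. Ranked 65, it measured 3.3, 1.53 and 4.72 CPM in controls and 22.3, 1.79 and 3.69 CPM in CKD kidneys, so CKD replicate 1 was high and the other CKD values overlapped with controls. Its log2 fold was 1.48 ± 0.89 (SE, edgeR adjusted p = 0.779), and in MSC kidneys it measured 0.147, 0.291 and 0.513 CPM. The member ranked 70, with a log2 fold of 0.55 ± 0.38 (SE, edgeR adjusted p = 0.805), measured 4.73, 4.47 and 3.96 CPM in controls and 7.22, 4.29 and 8.2 CPM in CKD kidneys, and met the minimum through the CKD group. The 1 member with all CKD values above all controls by CPM was ranked 11. It measured 158, 154 and 162 CPM in controls and 202, 175 and 203 CPM in CKD kidneys. Its log2 fold was 0.23 ± 0.26 (SE, edgeR adjusted p = 0.875).

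The CKD libraries were not alike for these genes. CKD replicate 2 had the lowest of the CKD values in 43 of 71 members (60.6%) and in 18.8% of the 11378 genes, and the highest in 9 members (12.7%), against 59.4% of all genes. It lay below all 3 controls in 23 members (32.4%), against 17.3% of all genes, and above them in 6 (8.45%), against 50.5%. CKD replicates 1 and 3 lay below all controls in 10 and 7 members (14.1% and 9.86%), against 18.3% and 26.4% of all genes. On TMM-scaled CPM, CKD replicate 2 was lowest of its group in 58 members (81.7%), against 42.5% of all genes, and below all 3 controls in 41 (57.7%), against 37.4%. By CPM, the members therefore had their lowest CKD level mostly in the library that was highest of its group for 59.4% of all genes. On the TMM scale CKD replicate 2 was highest for 32.1% of all genes. There it was also the library most often lowest over all genes (42.5%, against 28.4% and 29.2% for CKD replicates 1 and 3). On that scale the members thus leaned the same way as all genes, with a larger share. Without CKD replicate 2, the fold between CKD and control was below 0 in 38 of 71 members and the rule gave 88 genes, including all 71. The MSC mean of the summed level was 22.1% of the CKD mean, and 20.7% of it without CKD replicate 2.

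**Figure D5:**
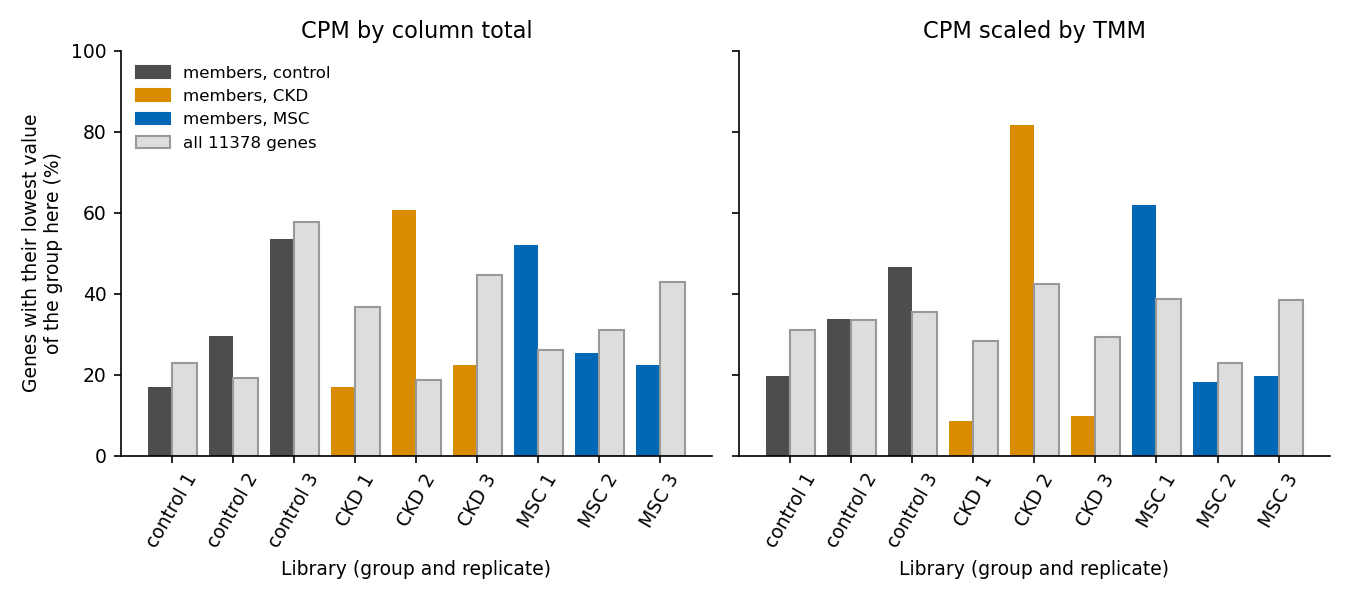
Percent of genes whose lowest value within a group falls in a given library, for members (coloured by group) and all 11378 genes (light grey), with CPM by library total (left) and TMM-scaled CPM (right). CKD replicate 2 is lowest for 60.6% and 81.7% of members in the left and right panels, and MSC replicate 1 for 52.1% and 62%.

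Members also differed in how steady they were outside the MSC group. The highest of the 6 control and CKD values was 1.15 to 14.6 times the lowest, with a median of 1.92, and was under 2 times in 39 members and over 4 times in 5. The rule disfavours genes with a low outlying control or CKD library, so this spread is not compared with that of other genes. Among the steadiest was the member ranked 23 by level, with 66.3, 72.3 and 68.1 CPM in controls, 65.1, 62.8 and 72.1 CPM in CKD kidneys and 21.8, 22.5 and 28.6 CPM in MSC kidneys. In this gene the 6 control and CKD values spanned 1.15 times.

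A number of the variable members shared a pattern. In 14 members (19.7%, against 7.83% of the 11378 genes) control replicate 3 was the highest control and CKD replicate 3 the highest CKD library, and their control and CKD levels spanned a median of 2.84 times. On TMM-scaled CPM this held for 20 members (28.2%, against 20.2% of all genes), which is nearer to the background. One of them, ranked 42 by level, measured 14.8, 9.95 and 38.4 CPM in controls, 19.6, 8.15 and 48.6 CPM in CKD kidneys and 0.399, 2.35 and 3.03 CPM in MSC kidneys. Another, ranked 37, measured 24.2, 17.2 and 50.6 CPM in controls, 16.9, 6.59 and 38.5 CPM in CKD kidneys and 0.315, 1.66 and 1.46 CPM in MSC kidneys. In both genes replicate 2 was the lowest of the controls and of the CKD kidneys. Both had among the wider gaps in means, with control and CKD means 12.1 and 22.4 times the MSC mean. Of the 14 members, 8 were also highest in MSC replicate 3, as were 29 of the other 57.

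By CPM, a larger set was highest in control replicate 2 and CKD replicate 1, with 19 members (26.8%, against 6.81% of the 11378 genes), whose control and CKD levels spanned a median of 1.88 times. On TMM-scaled CPM it held 16 members (22.5%, against 7.84%), fewer than the 20 with replicate 3 highest in both groups. The least frequent pairing among members was control replicate 1 with CKD replicate 2, in 1 member (1.41%, against 16.9%; on the TMM scale 0 members, against 9.24%). The combination most frequent over all genes by CPM, replicate 2 highest in both groups, held 5 members (7.04%, against 35.5%), and 2 members (2.82%, against 15.6%) on TMM-scaled CPM. One of these 5, ranked 15 by level, measured 93.6, 187 and 69 CPM in controls, 85.7, 178 and 141 CPM in CKD kidneys and 12.3, 29.9 and 19.6 CPM in MSC kidneys, with replicate 2 highest in each group.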

How the data were processed

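Strand-specific libraries were made from poly(A) RNA of TRIzol extracts, per the labels' protocols. The submitters' processing notes name cutadapt, HISAT2, StringTie and the build Rnor_6.0. The versions, annotation release and strand setting are not given in the sources used here. Whole-number, unscaled counts per Ensembl gene, deposited by the authors, are the values analysed. The members and gene lists were chosen with earlier results of these data known. The 26 gene lists and the promoter comparison could not be used, because 0 of 22637 identifiers matched the 47357 genes of the reference table. The naming rule (roles, highest level, largest ratio, nearest the limit, CKD against control, widest spread) lost its condition on a symbol, so 2 identifiers are printed and other genes are given by rank.

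CPM used column totals. Tests used edgeR 4.0.16 (R 4.3.3): filterByExpr (17584 genes kept), TMM, a robust quasi-likelihood fit of the 9 libraries on group alone, and two-sided tests called at an adjusted p (Benjamini-Hochberg, over the genes tested) under 0.05. Standard errors came from the F statistic. The script was tested on simulated counts. Alternatives were DESeq2 1.42.0, limma-voom (limma 3.58.1), other scalings and filters, a replicate block, fits of 6 libraries and leaving out each library. The tallies of highest and lowest libraries, the level bands and the spread were chosen after the data were seen.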

Additional observations from a re-analysis of the deposited data

How the results depend on the processing

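The rule gave 203 genes at a fold limit of 1.5 and 10 at a limit of 3, and from 72 (without control replicate 1 or CKD replicate 3) to 191 (without MSC replicate 3) with single libraries left out, when fewer values had to meet it. Other levels, TMM scaling and keeping the abundant genes gave 55 to 104. Members called in CKD against control were 0 in every edgeR and limma-voom setting and 2 with DESeq2, and the cause was not tested. The main edgeR fit called 0 of the 17584 tested genes. For the other edgeR settings and limma-voom, the shares of all genes are not given here. Members with all CKD values below all controls numbered 4 to 12 with single libraries left out (9, 7 and 12 when control replicates 1, 2 and 3 were left out in turn, 8 when CKD replicate 3 was), with the shares of all genes given above. The fold of ENSRNOG00000009897 between CKD and control, 0.11 and not past the threshold, was -0.01 when control replicate 3 was left out and at most 0.24 when control replicate 2 was. Members called lower in MSC kidneys were 66 to 71 in every alternative run. With the replicate block, 0 members were called in CKD against control and 71 in both other comparisons. The rule used the MSC contrasts, so these counts of lower members describe the choice and are no test. The shares of all genes called in these runs are not given here. Same-numbered libraries deviated together (r over 0.1, all tested genes) in 5 of 9 pairs, and 5 of 9 libraries correlated best with their own number, so the numbers were not taken to pair them. Over the 71 members alone, r between same-numbered control and CKD libraries was 0.34, 0.63 and 0.56, a description across genes. Depth limits the 3 members with 0 counts in an MSC library, whose folds rest on few counts. The planned gene list and promoter comparisons were not run.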
